A study of Mus musculus with 12 samples.

Results

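The genes described are 7 ligands of the fibroblast growth factor (FGF) family, *Fgf1*, *Fgf2*, *Fgf7*, *Fgf9*, *Fgf10*, *Fgf18* and *Fgf21*, and 3 of its receptors, *Fgfr1*, *Fgfr2* and *Fgfr3*. They were taken by symbol, and each symbol matched 1 row of the count table, so that 10 of 54352 gene rows are covered. The cells were primary adventitial fibroblasts, cells that make the matrix of the outer vessel wall, grown out of pieces of ascending or descending aorta of C57Bl/6 mice that were wild type and 14 weeks old. All cultures were passaged 1 time and carried as batch 1. Those exposed to mouse TGFβ, at 10 ng/mL over 48 h, were set beside controls given the solute alone. The 4 groups, descending control, descending TGFβ, ascending control and ascending TGFβ, held 3 RNA sequencing libraries each. The cells were selected by outgrowth from the dissected layer and not by a marker, and it is not stated whether the libraries of a group came from separate animals, so that the p-values measure the spread between these libraries, which may be technical. The comparisons ask whether cultured fibroblasts from these sites still differ and whether they answer TGFβ differently.

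FGFs are secreted proteins that bind receptor tyrosine kinases at the cell surface together with heparan sulfate chains, and the activated receptor signals through adaptor proteins to the Ras and ERK kinases. FGF2 and FGF1 are known as growth factors for fibroblasts, smooth muscle cells and endothelial cells, FGF7 and FGF10 as signals that connective tissue cells send to epithelium, and FGF21 as a hormone that needs the co-receptor β-Klotho. TGFβ is known to drive fibroblasts towards a contractile state that makes extracellular matrix.

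The libraries held 16250126 to 23892943 counts. Descending control replicate 3 stood apart, with 13031 genes detected against 19337 to 20931 in the other libraries and 11.02% of its counts on mitochondrial genes against 0.703 to 1.03%. Tests that include this library are therefore given with and without it. The 8 fibroblast markers, among them *Pdgfra*, *Col1a1* and *Dcn*, were above the floor of 3 counts in each group and summed to between 11410 and 24680 normalized CPM, which is a count relative to its library total after scaling between libraries. Most of that sum was *Col1a1* and *Col1a2*, which were higher in every TGFβ library than in the controls of the same site, as was *Pdgfrb*, while *Pdgfra*, *Dcn*, *Lum*, *Thy1* and *Dpt* were lower in every TGFβ library. *Pdgfra* stood at 355.3 to 377.9, 78.8 to 91.1, 179.5 to 188.1 and 52.0 to 59.2 in descending control, descending TGFβ, ascending control and ascending TGFβ. The 7 smooth muscle markers summed to 2479 to 2595 in descending control, 7993 to 8429 in descending TGFβ, 1578 to 1684 in ascending control and 5114 to 5192 in ascending TGFβ. *Acta2* made up most of the sum in every library, and *Myh11* stood at 44.2 to 82.2, 67.7 to 81.6, 23.1 to 25.5 and 12.5 to 17.6 in the same order. Markers of other cell types were low and also moved with the groups. The 4 adipocyte markers summed to 76.7 to 107.2, 25.1 to 45.2, 4.06 to 14.6 and 2.19 to 2.60 in the same order, and *Plin1* and *Cidec* were at the floor in ascending TGFβ. The 6 macrophage markers summed to 25.0 to 46.9, 14.1 to 27.2, 54.2 to 356.5 and 29.6 to 42.3. The 356.5 is that of ascending control replicate 2, which stood apart in these markers. Its *Lyz2* was at 291.1 against 38.7 and 42.3 in the other ascending controls, and its *Lum* at 39.7 against 5.66 and 7.78. The 6 endothelial markers, of which *Emcn* was at the floor in every group, summed to 23.5 to 26.6, 9.70 to 11.3, 24.3 to 27.9 and 4.85 to 5.73. Most of that sum was *Tek*, at 23.5 to 24.7, 7.75 to 9.31, 23.4 to 25.7 and 3.601 to 4.735, while *Kdr* stood at 0 to 0.948, 1.23 to 1.61, 0.519 to 0.798 and 0.487 to 0.852. The 4 mesothelial markers, with *Wt1* at the floor in every group, summed to 6.77 to 13.1, 12.3 to 14.0, 32.8 to 42.5 and 19.7 to 26.5, and the 4 Schwann cell markers to 14.7 to 24.3, 10.8 to 12.2, 21.4 to 25.9 and 14.9 to 15.7. The adipocyte sum was mostly *Fabp4*, the macrophage sum *Lyz2*, the Schwann cell sum *S100b*, with *Sox10* at 0 counts in the descending libraries, and the mesothelial sum *Krt19* in descending and *Upk3b* in ascending fibroblasts. The part of these cells in the results was not tested, and in bulk RNA fewer cells of a type and less RNA per cell cannot be told apart.

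*Fgf2*, *Fgf7* and *Fgf18* made up most of the ligand RNA, and *Fgfr1* nearly all of the receptor RNA. Levels of different genes were compared as normalized CPM per kb of exon. The 7 ligands together reached 54.9 ± 1.66 (SD, n = 3) per kb in ascending control and 60.0 ± 1.18 in ascending TGFβ. They reached 102.7 ± 4.89 in descending TGFβ and 203.5 ± 162.4 in descending control, or 109.7 ± 1.07 (n = 2) without replicate 3. The sum was not tested, and its makeup differed between control and TGFβ. In descending fibroblasts *Fgf7* held 40.3% of the sum in control without replicate 3 (52.2% with it) and 10.9% with TGFβ, and *Fgf18* held 13.9% (11.01% with it) and 41.2%. *Fgf2* held 35.1% there in control without replicate 3 (28.2% with it) and 44.5% with TGFβ. In ascending fibroblasts *Fgf7* held 32.8% in control and 9.34% with TGFβ, *Fgf2* held 34.9% and 60.9%, and *Fgf18* 26.0% and 27.9%. In ascending control the order was *Fgf2* at 19.1 ± 0.155 per kb, *Fgf7* at 18.01 ± 1.11, *Fgf18* at 14.3 ± 1.38, *Fgf10* at 3.29 ± 0.319, *Fgf1* at 0.140 ± 0.00895 and *Fgf9* at 0.0649 ± 0.0492, and *Fgf2* and *Fgf7* did not differ beyond their spread. In descending TGFβ *Fgf2* at 45.7 ± 2.89 and *Fgf18* at 42.3 ± 2.13 stood near each other, with *Fgf2* the higher in all 3 libraries and their shares of the sum at 44.5 ± 0.779% and 41.2 ± 0.115%. The libraries overlapped between *Fgf10* at 1.31 ± 0.0949, *Fgf9* at 1.08 ± 0.382 and *Fgf21* at 0.995 ± 0.378. *Fgfr1* held between 91.7% and 95.7% of the summed receptor level in the 4 groups, *Fgfr2* between 3.64% and 6.79% and *Fgfr3* between 0.647% and 1.88%. The 1.88% is that of descending control, where *Fgfr3* had 0 counts in replicate 3, and without that library *Fgfr3* held 2.82%, *Fgfr2* 4.82% and *Fgfr1* 92.4%.

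**Figure D1:**
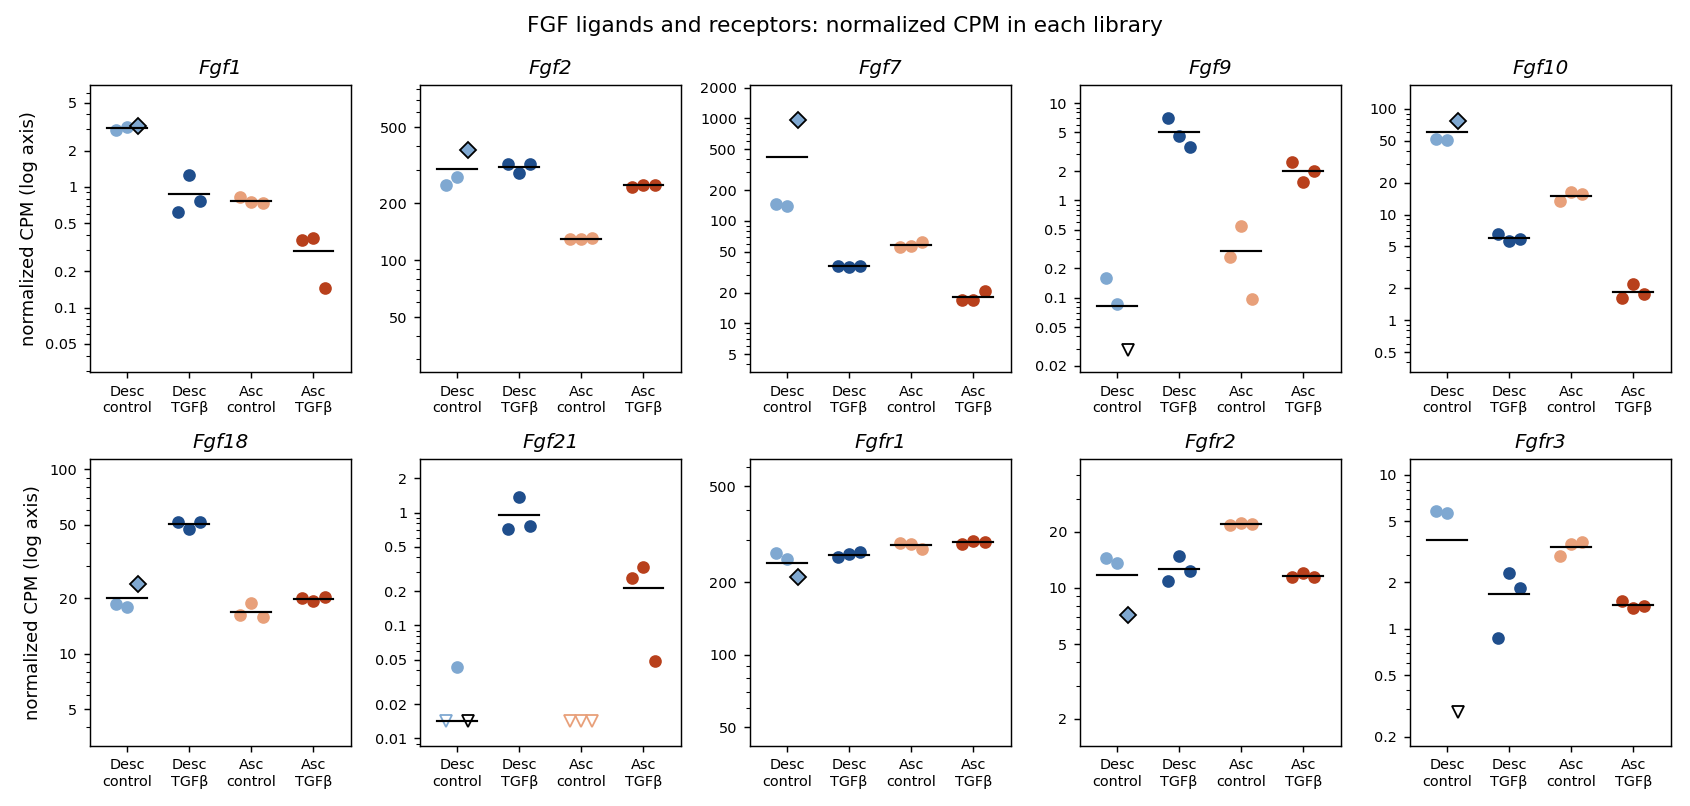
Normalized CPM on a log axis of each FGF ligand and receptor gene in the 12 libraries, by group (Desc, descending; Asc, ascending; 3 libraries each). Dots are libraries, the diamond is descending control replicate 3, open triangles are libraries with 0 counts drawn at the lower edge, and lines are group means; *Fgf7* reached 966.2 in descending control replicate 3 and 141.2 to 145.9 in the other descending controls.

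**Figure D2:**
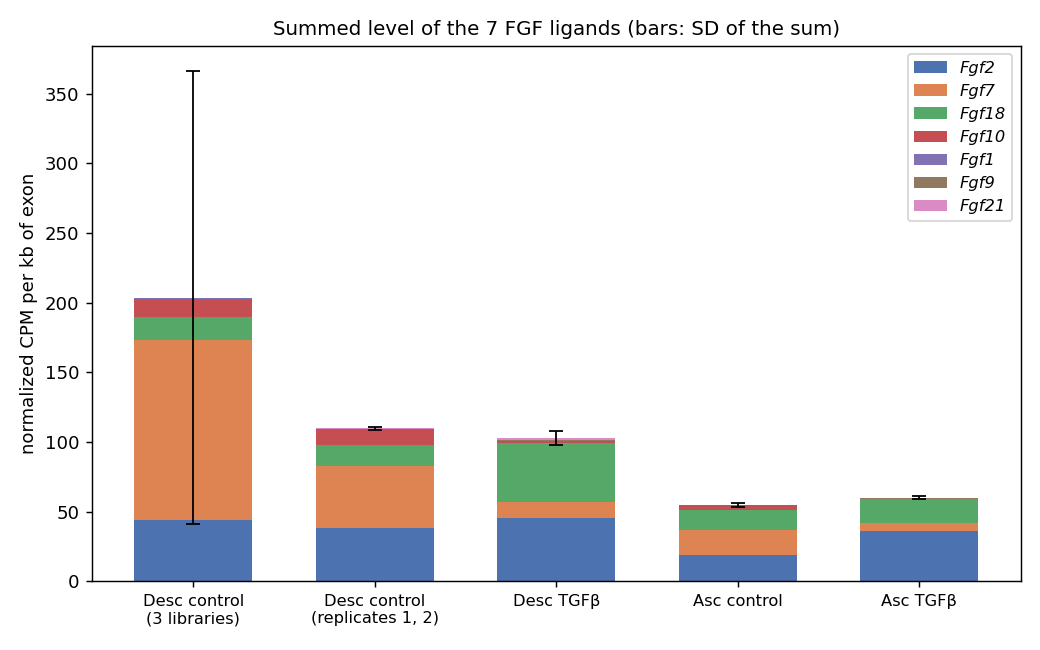
Summed level of the 7 FGF ligands as normalized CPM per kb of exon, stacked by gene, with the SD of the sum as error bar (n = 3, and n = 2 where descending control replicate 3 was left out). The sum was 109.7 in descending control without that library and 102.7 in descending TGFβ, and the *Fgf7* segment was smaller and the *Fgf18* segment larger with TGFβ.

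TGFβ lowered *Fgf7* and *Fgf10* and raised *Fgf9* in ascending fibroblasts, and changed *Fgf10* and *Fgf9* in the same directions in descending fibroblasts with or without replicate 3. In ascending fibroblasts 3 of the 9 genes tested rose (*Fgf2*, *Fgf9*, *Fgf18*) and 5 fell (*Fgf1*, *Fgf7*, *Fgf10*, *Fgfr2*, *Fgfr3*), where 28.2% of all 13917 genes tested rose and 27.6% fell at an adjusted p under 0.05 from edgeR. *Fgfr1* did not pass the test, and *Fgf21* was too low to be tested. In descending fibroblasts 3 of 10 rose (*Fgf9*, *Fgf18*, *Fgf21*) and 1 fell (*Fgf10*), against 3.59% of all genes higher and 4.48% lower. Of these, *Fgf9* and *Fgf21* passed the filter on low counts through the TGFβ libraries alone, so that their calls rest partly on that filter. The same holds in ascending fibroblasts for *Fgf9*, and for *Fgf1* through the control libraries. Without replicate 3, 4 rose (*Fgf2*, *Fgf9*, *Fgf18*, *Fgf21*) and 4 fell (*Fgf1*, *Fgf7*, *Fgf10*, *Fgfr3*), against 26.6% higher and 26.3% lower. In the fit of all 6 descending libraries, the *Fgf10* call held whichever library was left out, while the calls for *Fgf9* and *Fgf18* were lost without control replicate 2 or any TGFβ replicate, at adjusted p from 0.0526 to 0.0978. That for *Fgf21* was lost without any library but control replicate 3, at adjusted p from 0.11 to 0.21, and at 0.0574 without the filter on low counts. In 1 fit of all 12 libraries the ascending calls for *Fgf7*, *Fgf18* and *Fgfr3* were lost (adjusted p = 0.106, 0.321 and 0.48). In that fit 1181 of all genes rose and 1157 fell in ascending fibroblasts, against 3929 and 3838 in the main fit.

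**Figure D3:**
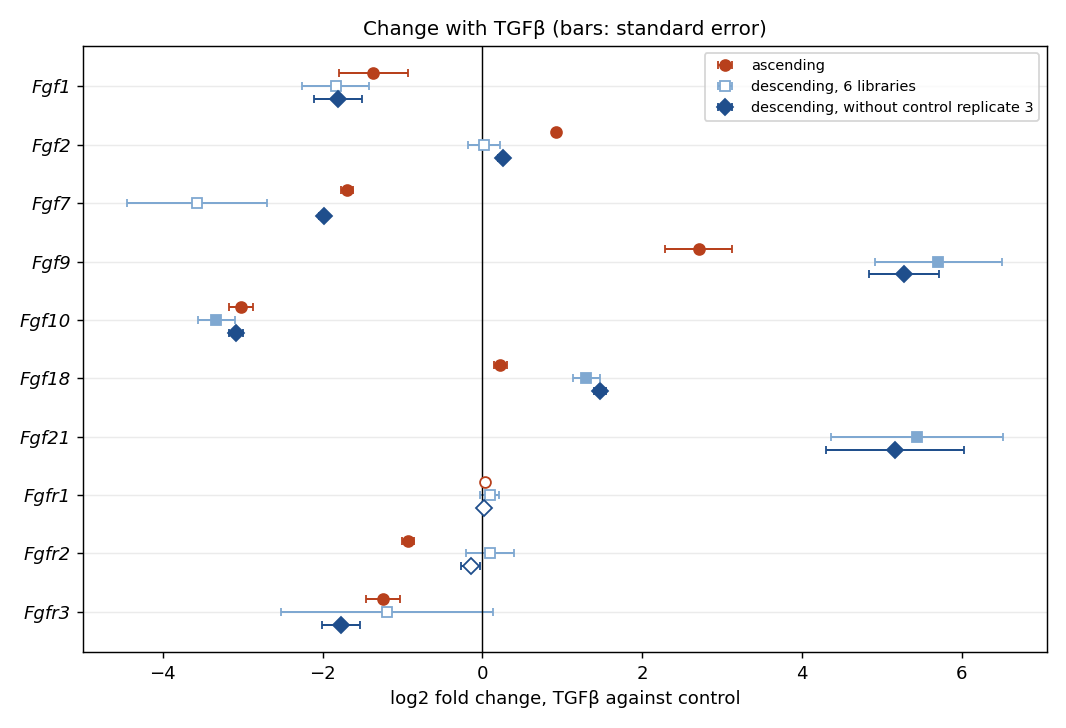
Log2 fold change of each gene, TGFβ against control, with its standard error, in ascending fibroblasts (circles), in the 6 descending libraries (squares) and without descending control replicate 3 (diamonds). Filled symbols have an edgeR adjusted p under 0.05; *Fgf10* lay between -3.33 and -3.02 in the 3 fits, and the values of *Fgf21* rest on control counts at the floor.

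*Fgf10*, which encodes a ligand of the FGFR2 form of epithelium, lies at chr13:118669791-118792115 (GRCm38, + strand). It stood at 51.6, 51.1 and 76.5 normalized CPM in the descending controls and at 6.52, 5.66 and 5.93 in the descending TGFβ libraries. In ascending fibroblasts it stood at 13.5, 16.2 and 15.7 in control and at 1.62, 2.23 and 1.76 with TGFβ. Every TGFβ library was lower than every control library at either site. The log2 fold change was -3.02 (SE 0.15, edgeR adjusted p = 2.9e-11) in ascending and -3.33 (SE 0.23, adjusted p = 0.00161) in descending fibroblasts, or -3.08 (SE 0.09, adjusted p = 3.55e-22) without replicate 3. Levels were 8.10-fold lower with TGFβ in ascending and 8.51-fold lower in descending fibroblasts without replicate 3. An antisense gene, *Gm16263*, overlaps an exon and had 0 to 53 counts, the most in descending control replicate 3; the strand setting of the counting is not given in the sources used here, so reads within the 123 bases that overlap, of 4601 exon bases of *Fgf10*, cannot be told apart.

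*Fgf7*, or keratinocyte growth factor, lies at chr2:126034658-126091185 (+ strand). The values were 145.9, 141.2 and 966.2 normalized CPM in descending control, 36.5, 35.6 and 36.5 in descending TGFβ, 55.8, 57.1 and 62.6 in ascending control and 16.8, 16.9 and 21.0 in ascending TGFβ. Descending control replicate 3, with 14283 counts, was 6.73 times the mean of the other descending controls. In ascending fibroblasts *Fgf7* fell by 1.69 on the log2 scale (SE 0.08, edgeR adjusted p = 6.49e-12). In descending fibroblasts the log2 fold change was -3.57 (SE 0.88, adjusted p = 0.0657) with replicate 3 and -1.98 (SE 0.06, adjusted p = 1.56e-22) without it. The call in descending fibroblasts thus appeared when this library was left out, and the groups did not overlap either way.

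*Fgf1*, the broadest ligand, which binds all FGF receptors, was scarce. It lies at chr18:38838673-38929472 (- strand). It stood at 2.96, 3.15 and 3.18 normalized CPM in descending control and 0.616, 1.25 and 0.759 in descending TGFβ. It stood at 0.822, 0.748 and 0.729 in ascending control and 0.365, 0.379 and 0.146 in ascending TGFβ. TGFβ libraries were lower than control libraries at both sites. The log2 fold change was -1.37 (SE 0.43, edgeR adjusted p = 0.0125) in ascending fibroblasts, a call lost without ascending TGFβ replicate 3 (-1.04, adjusted p = 0.0723). In descending fibroblasts it was -1.84 (SE 0.42, adjusted p = 0.0525), and -1.81 (SE 0.30, adjusted p = 6.97e-06) without replicate 3.

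*Fgf2*, or basic FGF, lies at chr3:37348346-37410108 (+ strand). Its levels were 129.5, 128.6 and 130.7 normalized CPM in ascending control and 244.2, 249.0 and 250.0 in ascending TGFβ. They were 248.9, 273.1 and 380.9 in descending control and 320.2, 287.6 and 322.6 in descending TGFβ. The ascending TGFβ libraries reached about the level of the lowest descending control. In ascending fibroblasts *Fgf2* rose 1.91-fold (log2 fold change 0.92, SE 0.03, edgeR adjusted p = 2.68e-13). In descending fibroblasts the change was 0.02 (SE 0.20, adjusted p = 0.965), and 0.25 (SE 0.06, adjusted p = 0.00043) without replicate 3. The exons share 10.9% of their 50-base sequences with other genes, mostly with *Nudt6* on the opposite strand, which had 0 to 45 counts.

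The promoters of *Fgf7* and *Fgf10*, which fell, and of *Fgf9*, *Fgf18* and *Fgf21*, which rose, are shown as examples of ligands that fell or rose with TGFβ, chosen after their values were seen. They are printed from RefSeq (GRCm38.p6), each from 250 bases before to 50 after the start of the gene, 5′ to 3′ on the strand of the gene. Capitals mark CAGAC, or GTCTG where it stands on the other strand, the short sequence known to be bound by SMAD proteins, through which TGFβ acts. The windows are chr2:126034408-126034707 (+) for *Fgf7*, chr13:118714449-118714748 (+) for *Fgf10*, chr14:58072436-58072735 (+) for *Fgf9*, chr11:33147351-33147650 (-) for *Fgf18* and chr7:45615441-45615740 (-) for *Fgf21*. The RefSeq starts of *Fgf9* and *Fgf10* lie within the gene spans given from GENCODE.
Fgf7: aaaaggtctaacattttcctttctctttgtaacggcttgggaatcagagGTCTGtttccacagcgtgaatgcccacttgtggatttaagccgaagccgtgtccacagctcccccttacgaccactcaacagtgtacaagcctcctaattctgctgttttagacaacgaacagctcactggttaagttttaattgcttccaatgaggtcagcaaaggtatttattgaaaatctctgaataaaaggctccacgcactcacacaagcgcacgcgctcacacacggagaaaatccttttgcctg
Fgf10: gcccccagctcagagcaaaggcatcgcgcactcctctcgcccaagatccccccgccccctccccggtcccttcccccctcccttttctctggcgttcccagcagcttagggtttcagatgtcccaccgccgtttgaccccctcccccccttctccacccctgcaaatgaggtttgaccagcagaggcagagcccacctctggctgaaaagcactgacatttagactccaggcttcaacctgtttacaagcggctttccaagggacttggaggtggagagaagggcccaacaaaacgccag
Fgf9: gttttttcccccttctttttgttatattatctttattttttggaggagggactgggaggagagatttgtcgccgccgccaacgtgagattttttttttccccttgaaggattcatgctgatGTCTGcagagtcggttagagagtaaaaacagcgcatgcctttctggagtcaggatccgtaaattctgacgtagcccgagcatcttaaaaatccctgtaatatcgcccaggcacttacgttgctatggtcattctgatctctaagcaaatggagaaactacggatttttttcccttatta
Fgf18: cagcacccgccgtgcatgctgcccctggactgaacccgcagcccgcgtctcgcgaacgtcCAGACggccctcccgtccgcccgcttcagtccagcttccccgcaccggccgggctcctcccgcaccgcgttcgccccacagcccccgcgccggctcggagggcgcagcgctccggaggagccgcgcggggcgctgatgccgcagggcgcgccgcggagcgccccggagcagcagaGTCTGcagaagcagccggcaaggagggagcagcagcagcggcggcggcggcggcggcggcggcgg
Fgf21: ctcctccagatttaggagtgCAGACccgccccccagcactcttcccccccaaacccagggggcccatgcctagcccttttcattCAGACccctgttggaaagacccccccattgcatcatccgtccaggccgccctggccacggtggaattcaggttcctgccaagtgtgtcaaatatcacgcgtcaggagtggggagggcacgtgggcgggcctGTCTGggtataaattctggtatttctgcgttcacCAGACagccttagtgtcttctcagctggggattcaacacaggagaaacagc
The window of *Fgf10* held 0 matches, those of *Fgf7* and *Fgf9* 1 each, that of *Fgf18* 2 and that of *Fgf21* 4. Of the genes not shown that passed the test in ascending fibroblasts, the window of *Fgf2* held 1 match, and that of *Fgfr2* and both of *Fgfr3* held 0. A match on either strand occurs in 49.6% of all 32851 windows of this length, so that most of these counts are common. The TATA box letters TATAAA, searched on both strands and found in 13.6% of windows, stood at -28 in the *Fgf21* window and in none of the other 4, and the AP-1 letters TGANTCA, on either strand and in 7.81% of windows, in none of the 5. The matches are a description of the letters and were not related to binding. A RefSeq window was matched for 8 of the 10 genes.

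*Fgf9*, a ligand known from lung development, was near the floor without TGFβ and lies at chr14:58070547-58112720 (+ strand). The counts were 4, 2 and 0 in descending control and 6, 11 and 2 in ascending control, against 136, 84 and 74 in descending TGFβ and 47, 33 and 41 in ascending TGFβ. In normalized CPM these are 0.158, 0.0862 and 0, then 0.259, 0.549 and 0.0972, then 6.98, 4.57 and 3.51, and 2.45, 1.56 and 2.00. TGFβ libraries were far above control libraries at both sites, without overlap. The log2 fold change was 2.71 (SE 0.42, edgeR adjusted p = 3.59e-05) in ascending and 5.71 (SE 0.80, adjusted p = 0.0122) in descending fibroblasts, or 5.28 (SE 0.44, adjusted p = 1.55e-11) without replicate 3. With so few control counts, the size of the change in descending fibroblasts is less well determined than its direction.

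*Fgf18*, a ligand known from the skeleton and lung, lies at chr11:33117430-33147400 (- strand). It stood at 18.5, 17.8 and 23.95 normalized CPM in descending control and at 51.8, 47.3 and 51.5 in descending TGFβ. In ascending fibroblasts it stood at 16.1, 18.8 and 15.8 in control and at 20.1, 19.2 and 20.4 with TGFβ. The descending TGFβ libraries were thus apart from the other 9, which lay between 15.8 and 23.95. In descending fibroblasts the log2 fold change was 1.30 (SE 0.17, edgeR adjusted p = 0.01) and 1.47 (SE 0.08, adjusted p = 6.12e-16) without replicate 3. In ascending fibroblasts it was 0.23 (SE 0.08, adjusted p = 0.0245), a call lost in DESeq2's Wald test (adjusted p = 0.0654) and without ascending control replicates 1 or 3 or ascending TGFβ replicates 1 or 3, with values of 0.19, 0.18, 0.22 and 0.21.

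*Fgf21*, known as a hormone of liver and fat tissue, lies at chr7:45613886-45615490 (- strand) and had 0, 1 and 0 counts in descending control and 0 in each ascending control. With TGFβ it had 14, 25 and 16 counts in descending fibroblasts, or 0.718, 1.36 and 0.759 normalized CPM, and 5, 7 and 1 in ascending fibroblasts, or 0.261, 0.332 and 0.0488. Every descending TGFβ library was above the floor of 3 counts, and ascending TGFβ replicate 3 was below it. In descending fibroblasts the ratio of 55 counts with TGFβ to 1 in control, scaled to library size, was 59.1 (exact 95% interval 10.2 to 2375, edgeR adjusted p = 0.0352), and 45.3 (7.79 to 1820, adjusted p = 8.61e-06) without replicate 3. The gene passed the filter on low counts through the TGFβ libraries alone, so that these p-values rest partly on that filter. In ascending fibroblasts the mean with TGFβ was at least 1.43-fold higher than the highest floor of a control library, with no test. PCR reads are not independent molecules, so these limits hold for the counting error alone.

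*Fgfr1*, known as the main FGF receptor of connective tissue cells, lay between 209.4 and 296.0 normalized CPM over the 12 libraries. The gene lies at chr8:25513654-25575718 (+ strand). Its levels were 263.3, 250.2 and 209.4 normalized CPM in descending control, 253.8, 260.8 and 266.0 in descending TGFβ, 292.2, 287.8 and 273.6 in ascending control and 287.1, 296.0 and 295.0 in ascending TGFβ. The control and TGFβ libraries overlapped at both sites. The log2 fold change with TGFβ was 0.03 (SE 0.03, edgeR adjusted p = 0.456) in ascending and 0.09 (SE 0.12, adjusted p = 0.68) in descending fibroblasts, or 0.02 (SE 0.05, adjusted p = 0.733) without replicate 3. *Fgfr2*, whose forms bind FGF7 and FGF10 in epithelium, lies at chr7:130162451-133123350 (- strand), a span that shares exon sequence with *Ctbp2* on the same strand, which had 907 to 1237 counts against 106 to 504 for *Fgfr2*. It stood at 21.8, 22.3 and 21.96 in ascending control and 11.4, 12.1 and 11.5 in ascending TGFβ. In descending fibroblasts it stood at 14.5, 13.6 and 7.17 in control and 10.9, 14.9 and 12.3 with TGFβ. The ascending controls were thus apart from the other 9 libraries, which lay at 14.9 or below. *Fgfr2* fell in ascending fibroblasts (log2 fold change -0.93, SE 0.07, adjusted p = 1.24e-08), and the value in descending fibroblasts was 0.10 (SE 0.30, adjusted p = 0.878), or -0.15 (SE 0.12, adjusted p = 0.318) without replicate 3.

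*Fgfr3*, known as a brake on bone growth, lies at chr5:33721674-33737068 (+ strand) and was the lowest of the receptors per kb in every group. It stood at 2.98, 3.54 and 3.64 normalized CPM in ascending control and 1.51, 1.37 and 1.41 in ascending TGFβ. In descending fibroblasts it stood at 5.77, 5.603 and 0 in control and 0.872, 2.29 and 1.85 with TGFβ. The 0 is that of replicate 3, and the other controls lay above all TGFβ libraries. The log2 fold change was -1.25 (SE 0.22, edgeR adjusted p = 0.000108) in ascending fibroblasts. It was -1.19 (SE 1.33, adjusted p = 0.637) in descending fibroblasts and -1.77 (SE 0.24, adjusted p = 2.89e-07) without replicate 3. The exons share 11.6% of their 50-base sequences with *G630022F23Rik* on the opposite strand, which had 0 to 1 counts.

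*Fgf1*, *Fgf2* and *Fgf10* were lower in ascending than in descending fibroblasts both before and after TGFβ. In control, 3 of the 8 genes tested were lower in ascending fibroblasts (*Fgf1*, *Fgf2*, *Fgf10*) and 0 higher in edgeR (1 at an unadjusted p under 0.05, 1 in DESeq2, 2 in limma), against 1.47% of all 14090 genes tested lower and 1.19% higher. Over all genes DESeq2 called 592 lower and 559 higher, and limma 2156 and 2236. Without descending control replicate 3, 5 were lower (*Fgf1*, *Fgf2*, *Fgf7*, *Fgf10*, *Fgfr3*) and 2 higher (*Fgfr1*, *Fgfr2*), against 15.2% lower and 16.4% higher. *Fgf9* and *Fgf21* were too low to be tested in control, where *Fgf9* averaged 0.302 normalized CPM in ascending and 0.0814 in descending fibroblasts (0.122 without replicate 3), and the libraries overlapped. With TGFβ all 7 ligands were lower in ascending fibroblasts and *Fgfr1* was higher, against 18.2% of all 13678 genes tested lower and 18.1% higher. Each TGFβ comparison and each site comparison share libraries, so that a high or low library enters both.

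In control the log2 fold change, ascending against descending, was -2.00 (SE 0.34, edgeR adjusted p = 0.0461) for *Fgf1*, -1.22 (SE 0.20, adjusted p = 0.0379) for *Fgf2* and -1.98 (SE 0.22, adjusted p = 0.012) for *Fgf10*. Without descending control replicate 3 these were -1.96, -0.99 and -1.74 (adjusted p = 5.97e-05, 3.57e-09 and 6.47e-10). The ascending and descending controls of these genes did not overlap. For *Fgf7* the value was -2.86 (SE 0.86, adjusted p = 0.216) with and -1.27 (SE 0.06, adjusted p = 8.14e-10) without that library. *Fgf18*, at 16.9 ± 1.63 and 20.1 ± 3.37 normalized CPM (SD, n = 3) in ascending and descending control, overlapped between sites, with a difference of -0.25 (SE 0.19, adjusted p = 0.576) and -0.08 (SE 0.09, adjusted p = 0.578) without that library. The receptors *Fgfr1* and *Fgfr2* were at 0.17 (SE 0.04, adjusted p = 0.00689) and 0.67 (SE 0.08, adjusted p = 1.83e-05) without it and did not pass the test with it (adjusted p = 0.462 and 0.208). *Fgfr3* was at -0.73 (SE 0.18, adjusted p = 0.00594) without it and at -0.15 (SE 1.25, adjusted p = 0.956) with it. In the fit of all 6 controls, leaving out any ascending library or descending control replicate 2 left 0 of these genes past the threshold, and leaving out descending control replicate 1 left 1. Over all genes, 167 higher and 207 lower became 17 and 16, 21 and 22, and 17 and 16 without ascending control replicates 1, 2 and 3. They became 36 and 41 without descending control replicate 2, and 43 and 65 without descending control replicate 1. The call for *Fgf1* was also lost without the filter on low counts (adjusted p = 0.175) and with thinned counts (0.0803).

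Descending control replicate 3 does not enter the comparison within TGFβ. The largest of its site differences among the 10 genes was that of *Fgf21*, at -2.09 (SE 0.51, edgeR adjusted p = 0.00157), on 1 to 7 against 14 to 25 counts. This gene passed the filter on low counts through the descending libraries alone, as did *Fgf1*. *Fgf10* was at -1.68 (SE 0.19, adjusted p = 1.47e-08), *Fgf1* at -1.52 (SE 0.47, adjusted p = 0.0107), *Fgf18* at -1.33 (SE 0.07, adjusted p = 3.72e-16) and *Fgf9* at -1.32 (SE 0.23, adjusted p = 3.64e-05). *Fgf7* was at -0.98 (SE 0.08, adjusted p = 1.69e-11) and *Fgf2* at -0.32 (SE 0.04, adjusted p = 4.54e-07). The libraries of each ligand did not overlap between sites. The call for *Fgf1* was lost without descending TGFβ replicate 2 (-1.20, adjusted p = 0.0952) or ascending TGFβ replicate 3 (-1.20, adjusted p = 0.0768). *Fgfr1* was higher in ascending fibroblasts by 0.18 (SE 0.04, adjusted p = 0.000332), a 1.12-fold difference, while *Fgfr2* at -0.11 (SE 0.11, adjusted p = 0.475) and *Fgfr3* at -0.21 (SE 0.31, adjusted p = 0.646) overlapped between sites. In an alternative fit of all 12 libraries together, which takes the spread from replicate 3 as well, 3 of the 8 genes passed. In that fit 530 of all genes were higher and 576 lower, against 2476 and 2487 in the main fit. Under TGFβ the sums of the fibroblast, smooth muscle, adipocyte and endothelial markers given above were also higher in descending than in ascending fibroblasts. Those of the macrophage, mesothelial and Schwann cell markers were lower. The adipocyte sum fell with TGFβ at both sites, while *Fgf9* rose at both. The part of these cells was not tested.

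**Figure D4:**
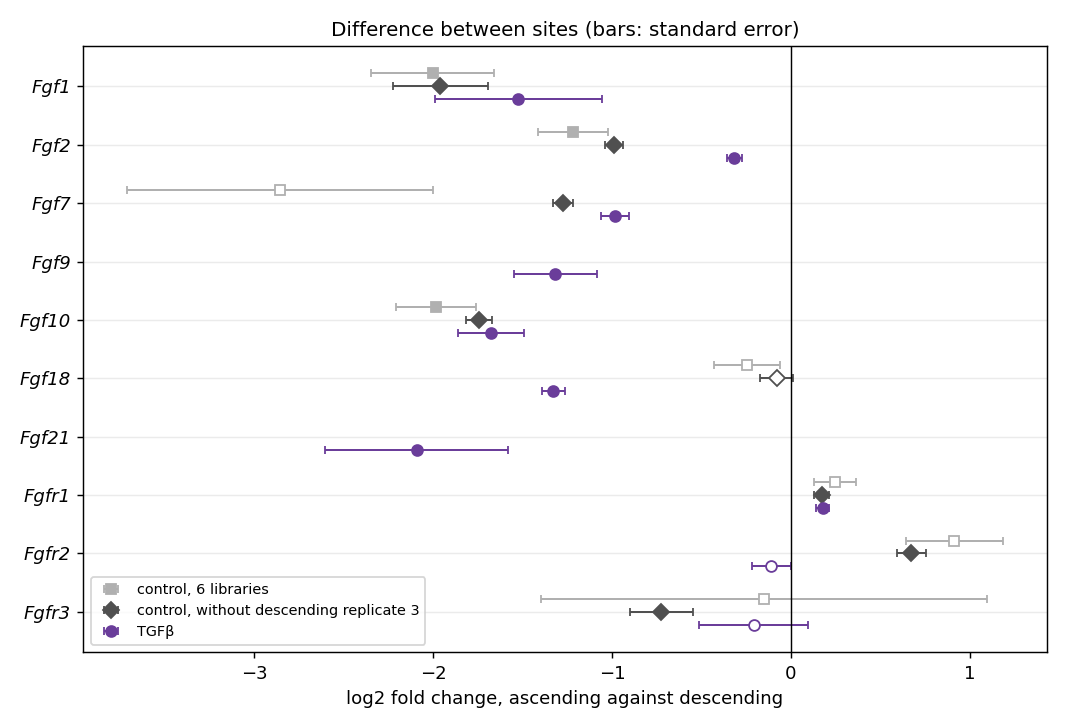
Log2 fold change of each gene, ascending against descending, with its standard error, in the 6 control libraries (squares), in control without descending replicate 3 (diamonds) and with TGFβ (circles). Filled symbols have an edgeR adjusted p under 0.05; in control the 5 ligands tested, and with TGFβ all 7, lay below 0, with *Fgf18* at -0.25 in control and -1.33 with TGFβ.

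The interaction asks whether the change with TGFβ differed between sites. Of the 10 genes 1 passed, *Fgf18*, with a more positive change in descending than in ascending fibroblasts, where 0.485% of all 14637 genes were lower and 0.321% higher. The difference of its log2 fold changes, ascending minus descending, was -1.08 (SE 0.19, edgeR adjusted p = 0.0253) and -1.24 (SE 0.11, adjusted p = 1.32e-08) without descending control replicate 3. The call in the fit of 12 libraries was lost, at adjusted p from 0.0608 to 0.0961 and values from -1.131 to -1.002, when any library other than descending control replicates 1 and 3 was left out, and at 0.0566 without the filter on low counts. Without replicate 3, *Fgf2* at 0.68 (SE 0.07, adjusted p = 9.52e-08) and *Fgf7* at 0.30 (SE 0.10, adjusted p = 0.0446) were higher, and *Fgf9* at -2.57 (SE 0.79, adjusted p = 0.0309) and *Fgfr2* at -0.78 (SE 0.14, adjusted p = 0.000307) were lower besides *Fgf18*, against 6.07% of all 15013 genes higher and 7.4% lower. With replicate 3 these 4 were at 0.90, 1.87, -2.97 and -1.02 (adjusted p = 0.0792, 0.511, 0.245 and 0.232). The value of *Fgf9* without replicate 3 rests on 4 and 2 counts in descending control and 6, 11 and 2 in ascending control. *Fgf9* passed the filter on low counts through the TGFβ libraries, so that its call rests partly on that filter. *Fgf10*, which fell at both sites, had a difference of 0.30 (SE 0.27, adjusted p = 0.665) and of 0.07 (SE 0.19, adjusted p = 0.871) without replicate 3.

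The other ligands of the family were mostly too low to be tested. Of 15 symbols 5 were tested in ascending fibroblasts, and 1, *Fgf13*, an intracellular member of the family, fell with TGFβ (log2 fold change -1.19, SE 0.41, edgeR adjusted p = 0.0202), a call not made by DESeq2, where 28.2% of all genes rose and 27.6% fell. *Fgf13*, at an average of 0.752 normalized CPM in ascending control and 0.328 with TGFβ, passed the filter on low counts through the control libraries alone. Its call thus rests partly on that filter. In descending fibroblasts 0 of 4 passed in edgeR (0 at an unadjusted p under 0.05, 0 in DESeq2, 3 in limma), against 3.59% of all genes higher and 4.48% lower in edgeR. Over all genes (13825 tested in edgeR), DESeq2 called 1181 higher and 1350 lower in this comparison, and limma 3661 and 3674. Without replicate 3 *Fgf14* and *Fgf16* rose and *Fgf13* fell, 3 of 5 in all, against 26.6% of all genes higher and 26.3% lower. Here *Fgf16* averaged 0.289 normalized CPM in control and 0.818 with TGFβ and passed the filter through the TGFβ libraries alone. Between sites 0 of 4 passed in edgeR in control (1 at an unadjusted p under 0.05, 1 in DESeq2, 3 in limma), against 1.19% of all genes higher and 1.47% lower in edgeR. Over all genes (14090 tested in edgeR), DESeq2 called 559 higher and 592 lower between sites in control, and limma 2236 and 2156. Without replicate 3, 3 of 5 passed, against 16.4% of all genes higher and 15.2% lower. Among these, *Fgf5* had 0 counts in every descending library and 0.786 ± 0.0771 normalized CPM (SD, n = 3) in ascending control. It passed the filter on low counts through the ascending libraries alone, so that its call rests partly on that filter. *Fgf14* was higher in ascending fibroblasts (1.00, SE 0.26, edgeR adjusted p = 0.0103), and *Fgf11* was lower (-0.92, SE 0.32, adjusted p = 0.0417). Of the 15 other receptors and co-receptors, 11 were tested in ascending fibroblasts, where 3 rose and 4 fell, near the 28.2% and 27.6% of all genes, with a median log2 fold change of 0.01 beside -0.00 for all genes tested. The glypicans *Gpc4* (0.52, SE 0.03, adjusted p = 1.14e-10) and *Gpc1* (0.69, SE 0.06, adjusted p = 2.18e-08) and the syndecan *Sdc3* (0.36, SE 0.03, adjusted p = 3.4e-08) rose, and *Gpc6* (-1.23, SE 0.04, adjusted p = 1.34e-13), *Sdc1* (-0.64, SE 0.05, adjusted p = 4.02e-09) and *Sdc4* (-0.49, SE 0.05, adjusted p = 1.55e-07) fell. These are cell-surface proteins that carry heparan sulfate. In descending fibroblasts 1 of 11, *Gpc6*, fell (-1.51, SE 0.13, adjusted p = 0.00314), against 4.48% of all genes lower and 3.59% higher, and without replicate 3, 5 of 12 rose and 6 fell, against 26.6% and 26.3% of all genes. In control, *Gpc3* (-2.95, SE 0.32, adjusted p = 0.0114) and *Gpc6* (-0.79, SE 0.13, adjusted p = 0.0379) were lower in ascending fibroblasts, 2 of 11, and 0 were higher in edgeR (2 at an unadjusted p under 0.05, 2 in DESeq2, 4 in limma), against 1.47% and 1.19% of all genes. Without replicate 3, 6 of 12 were lower and 4 higher, against 15.2% and 16.4% of all genes. The higher genes were *Sdc4* (1.02, SE 0.05, adjusted p = 2.3e-09), *Sdc3* (0.75, SE 0.04, adjusted p = 1.25e-08), the decoy receptor gene *Fgfrl1* (0.25, SE 0.05, adjusted p = 0.00116) and *Sdc2* (0.16, SE 0.04, adjusted p = 0.00923). *Klb*, the gene of β-Klotho, was among the lower ones at an average of 0.0288 normalized CPM in ascending control and 0.596 in descending control without that library. It passed the filter on low counts through the descending libraries.

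Of the 12 genes that build, trim or carry heparan sulfate chains, which hold FGFs at their receptors, 7 rose and 3 fell with TGFβ in ascending fibroblasts, with a median log2 fold change of 0.19, where 28.2% of all genes rose and 27.6% fell. *Ext1*, which elongates the chain, rose by 1.38 (SE 0.03, edgeR adjusted p = 7.58e-16), *Hs2st1*, a sulfotransferase, by 0.82 (SE 0.04, adjusted p = 2.55e-11) and *Glce*, the epimerase, by 0.87 (SE 0.05, adjusted p = 4.35e-10). *Sulf2*, which removes sulfate from the chains, had a change of -0.54 (SE 0.03, adjusted p = 1.74e-10), and *Ndst2* of -0.35 (SE 0.06, adjusted p = 6.29e-05). *Sulf1*, the other gene of the list that removes sulfate, rose by 0.35 (SE 0.03, edgeR adjusted p = 1.97e-08). In descending fibroblasts without replicate 3, *Sulf1* was at 1.27 (SE 0.05, adjusted p = 7.05e-19) and *Sulf2* at -0.31 (SE 0.05, adjusted p = 6.34e-06). In descending fibroblasts 4 of 12 rose and 0 fell in edgeR (7 and 1 at an unadjusted p under 0.05, 6 and 1 in DESeq2, 7 and 3 in limma), against 3.59% and 4.48% of all genes, with a median of 0.63 beside 0.02, led by *Ext1* (1.63, SE 0.19, adjusted p = 0.00664), and without replicate 3, 7 rose and 3 fell, against 26.6% and 26.3%, with a median of 0.52 beside -0.01. Between sites 0 of 12 passed in edgeR in control with replicate 3 (2 at an unadjusted p under 0.05, 0 in DESeq2, 10 in limma), against 1.19% of all genes higher and 1.47% lower in edgeR. Over all genes (14090 tested in edgeR), DESeq2 called 559 higher and 592 lower in this comparison, and limma 2236 and 2156. Without replicate 3, 7 were higher and 4 lower in ascending fibroblasts, against 16.4% and 15.2% of all genes. With TGFβ 1 of 12 was higher and 6 were lower, against 18.1% and 18.2%, and *Ndst1* and *Hspg2* were among the higher genes in control without replicate 3 and among the lower ones with TGFβ. Of the 10 adaptors that link the receptors to Ras, such as *Frs2* and *Grb2*, 3 rose and 4 fell in ascending fibroblasts, near the shares of all genes, with a median of -0.07, with *Shc1* at -0.42 (SE 0.03, adjusted p = 1.17e-08) and *Ptpn11* at 0.13 (SE 0.03, adjusted p = 0.00126). In descending fibroblasts 0 of 10 passed in edgeR (0 at an unadjusted p under 0.05, 0 in DESeq2, 3 in limma), against 3.59% of all genes higher and 4.48% lower in edgeR. Over all genes (13825 tested in edgeR), DESeq2 called 1181 higher and 1350 lower with TGFβ in descending fibroblasts, and limma 3661 and 3674. Without replicate 3, 1 rose and 2 fell, where 26.6% of all genes rose and 26.3% fell.

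Of the 15 genes that FGF and ERK signals are known to switch on or that feed back on the pathway, 2 rose and 8 fell with TGFβ in ascending fibroblasts, with a median log2 fold change of -0.12, where 28.2% of all genes rose and 27.6% fell. The adhesion protein gene *Flrt2* (-1.29, SE 0.04, edgeR adjusted p = 1.35e-13), the feedback inhibitor *Spry2* (-1.41, SE 0.07, adjusted p = 9.38e-12) and the transcription factor gene *Etv5* (-0.64, SE 0.06, adjusted p = 5.63e-08) fell. The phosphatase gene *Dusp5* (0.88, SE 0.10, adjusted p = 1.49e-06) and *Spry4* (0.28, SE 0.11, adjusted p = 0.0395) rose. In descending fibroblasts 2 of 15 rose, *Dusp4* (1.11, SE 0.14, adjusted p = 0.00844) and *Flrt3* (1.78, SE 0.28, adjusted p = 0.0175), and 4 fell, among them *Etv5* (-0.99, SE 0.12, adjusted p = 0.00801), *Spred1* (-0.65, SE 0.11, adjusted p = 0.0227) and *Dusp6* (-1.27, SE 0.22, adjusted p = 0.0227), with a median of -0.48, against 3.59% of all genes higher and 4.48% lower. Without replicate 3, 5 rose and 8 fell, with a median of -0.39, against 26.6% and 26.3%. In control *Flrt3* (2.28, SE 0.28, adjusted p = 0.0154) and *Dusp4* (1.17, SE 0.14, adjusted p = 0.0156) were higher in ascending fibroblasts, 2 of 15, and 0 were lower in edgeR (2 at an unadjusted p under 0.05, 1 in DESeq2, 3 in limma), against 1.19% and 1.47% of all genes. Over all genes DESeq2 called 559 higher and 592 lower in this comparison, and limma 2236 and 2156. Without replicate 3, 5 were higher and 3 lower, against 16.4% and 15.2%. The lower genes were *Spred1* (-0.66, SE 0.05, adjusted p = 1.36e-07), *Spry1* (-0.31, SE 0.06, adjusted p = 0.00195) and *Dusp6* (-0.45, SE 0.10, adjusted p = 0.00384), and *Spry2* (1.05, SE 0.07, adjusted p = 5.78e-08) was among the higher. With TGFβ 6 were higher and 1 was lower, against 18.1% and 18.2%. For the interaction 4 of 15 passed, *Spred1* at 0.68 (SE 0.10, adjusted p = 0.0182), *Dusp4* at -1.23 (SE 0.14, adjusted p = 0.00472), *Flrt2* at -0.69 (SE 0.11, adjusted p = 0.0182) and *Flrt3* at -1.55 (SE 0.26, adjusted p = 0.0218), 1 higher and 3 lower against 0.321% and 0.485% of all genes. Without replicate 3, 5 were higher and 4 lower, against 6.07% and 7.4%, the same 4 genes among them and also *Spry1*, *Etv1*, *Dusp6* and *Etv5* higher and *Spry2* lower. The lists are described by their counts and were not tested as sets.

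**Figure D5:**
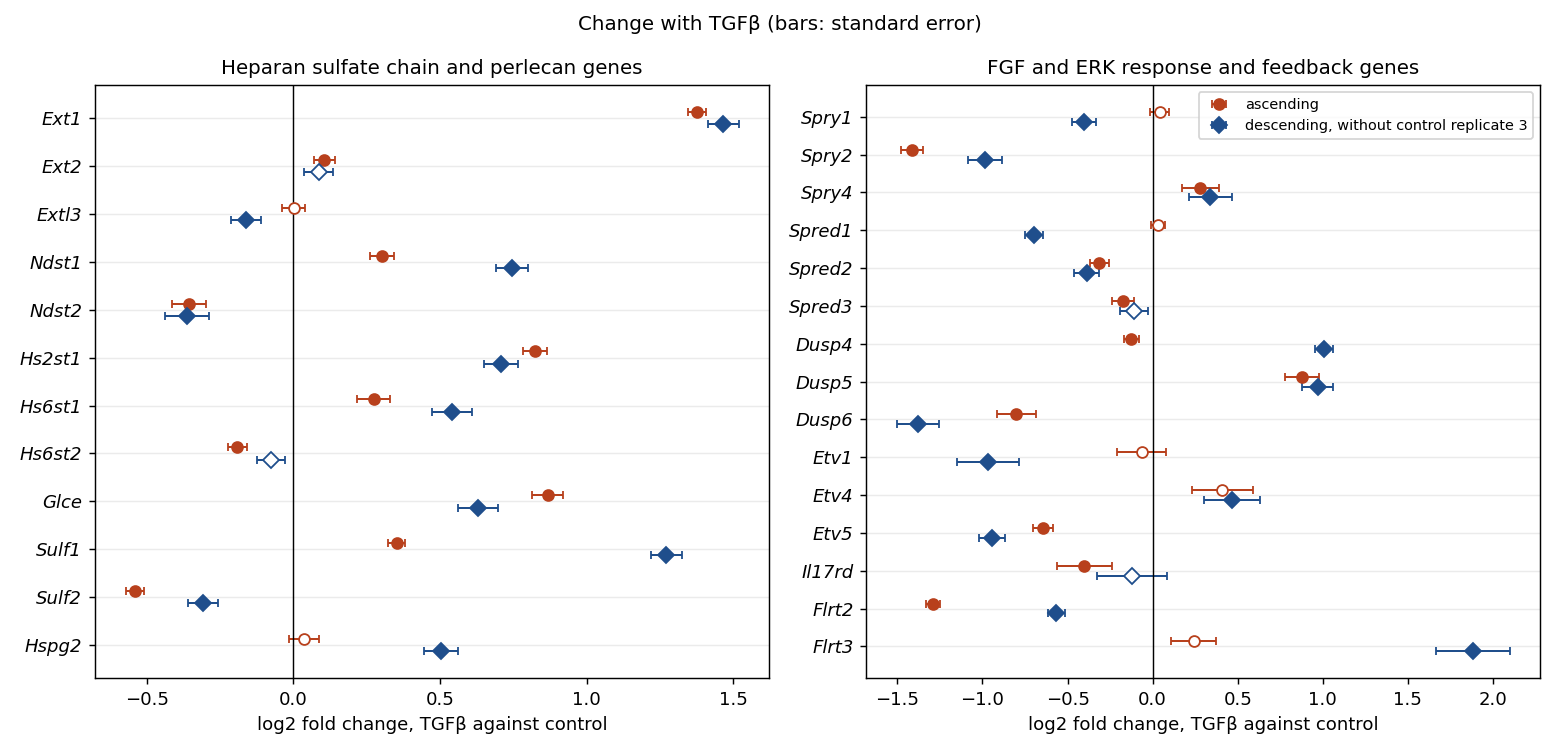
Log2 fold change with TGFβ and its standard error for the heparan sulfate genes (left) and for FGF and ERK response and feedback genes (right), in ascending fibroblasts (circles) and in descending fibroblasts without control replicate 3 (diamonds). Filled symbols have an edgeR adjusted p under 0.05; *Ext1* stood at 1.38 and 1.47 and *Spry2* at -1.41 and -0.98.

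The genes whose pattern over the 12 libraries was most like that of *Fgf2*, the ligand with the highest mean normalized CPM over the 12 libraries (*Fgf7* was higher in descending control replicate 3), among 14636 genes on the log2 scale were *Chst2*, a sulfotransferase gene (r = 0.986), *Csnk1a1*, a casein kinase gene (r = 0.982), and *Mfap3l* (r = 0.975). For *Fgfr1* they were *Gm12153* (r = 0.977), *Tnks1bp1* (r = 0.975) and *Gprc5b* (r = 0.973). Without descending control replicate 3 the values were 0.983, 0.980 and 0.977 for the former and 0.942, 0.936 and 0.926 for the latter, so that these genes stood 3, 5 and 8 in the order of likeness to *Fgf2* and 6, 12 and 21 in that to *Fgfr1*, and others were more alike. The libraries share site and treatment, so that these values of r describe the shared group pattern and carry no p.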

How the data were processed

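Groups follow the site and treatment in the labels. Per the labels and the paper, the authors aligned paired-end reads with STAR to mm10 and deposited raw counts per gene symbol from featureCounts, without normalization. Strand setting, treatment of reads matching several genes and tool versions are not given in the sources used here, and the paper gives ages and passages that partly differ from the labels. Of the rows 22 carried a number as symbol and were kept.

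Counts were tested with edgeR 4.0.16 in R 4.3.3 (two-sided quasi-likelihood F-test, TMM, filterByExpr at its defaults of 10 counts and 15 in total, Benjamini-Hochberg adjusted p under 0.05). A gene could pass this filter through 1 group alone, so that calls of genes with few counts in the other group rest partly on the filter. Each comparison used its 2 groups, and the interaction all 12 libraries. SE is the absolute log2 fold change over the square root of F. Positive values mean higher with TGFβ, higher in ascending fibroblasts, or a more positive change in ascending fibroblasts. A count of 3 was the floor of a library. Alternatives were DESeq2 1.42.0, its size factors, other filters, the replicate number as a block, thinned counts, limma 3.58.1 with sample weights, all 12 libraries in 1 fit and each library left out. Exon lengths, overlaps and shared 50-base sequences came from GENCODE vM21 (GRCm38). Likeness was Pearson's r of log2 normalized CPM. The genes, lists and markers were chosen with earlier results of these data known. All 10 genes are named. Of each list up to 3 genes per direction with the smallest adjusted p could be named for TGFβ at each site and for sites in control. The list genes named for other comparisons, *Sdc2*, *Klb*, *Ndst2*, *Sulf1*, *Spry4*, *Fgf14* and *Fgf16* were named after their values were seen. Python 3.11.15 was used for figures and sequences.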

Additional observations from a re-analysis of the deposited data

Results flagged for a closer look

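*Fgf18* differed between sites in its change with TGFβ. The difference of the log2 fold changes, ascending minus descending, was -1.08 (edgeR adjusted p = 0.0253, interaction term), with levels of 16.9 and 19.9 normalized CPM in ascending control and TGFβ and of 20.1 and 50.2 in descending control and TGFβ. All 3 descending TGFβ libraries were above the other 9. The difference was -1.24 without descending control replicate 3. The call was lost without the filter on low counts (adjusted p = 0.0566) and when any library other than descending control replicates 1 and 3 was left out (adjusted p from 0.0608 to 0.0961). With 3 libraries in each group, no outlier test was run on the values of a group.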

How the results depend on the processing

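Of the values of single genes under the alternatives, 572 kept direction and side of the threshold, 65 lost the call, 36 gained it and 22 changed sign, all of the latter for values that did not pass the test. The number of genes called was 4 for TGFβ in descending fibroblasts and became 1 with the replicate number as a block, 6 with DESeq2 and 8 with limma, and 1 to 8 with a library left out. For the sites in control it was 3 and became 5 with DESeq2, 0 with the block, 7 with limma, 5 with all 12 libraries in 1 fit and 0 to 7 with a library left out. For the sites with TGFβ it was 8 and became 3 in the fit of 12 libraries. For the interaction it was 1 and became 4 with DESeq2, 0 without the filter, 0 with the block, 3 with limma and 0 to 5 with a library left out. Over all genes the count for TGFβ in descending fibroblasts was 1115, and 7576 without control replicate 3 and 95 with the block. For the sites in control it was 374, 4631 and 0, and for the interaction 118, 2022 and 50. It was 7767 for TGFβ in ascending fibroblasts, 2338 in the fit of 12 libraries, and 4963 and 1106 for the sites with TGFβ. With DESeq2, 1181 of all genes were higher and 1350 lower for TGFβ in descending fibroblasts, and with limma 3661 and 3674. For the sites in control these were 559 and 592, and 2236 and 2156, with 740 and 805 in the fit of 12 libraries. For the interaction they were 218 and 276, and 926 and 1053, with 23 and 33 without the filter.

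Signs changed with limma for *Fgfr2* with TGFβ in descending fibroblasts (-0.17), and for *Fgfr1* (0.017) and *Fgfr3* (0.64) in the interaction, and with the block for *Fgfr3* between sites in control (0.61). With a library left out, the log2 values ran from -0.105 to 0.25 for *Fgf2* and from -0.15 to 0.26 for *Fgfr2* with TGFβ in descending fibroblasts, from -0.72 to 0.27 for *Fgfr3* between sites in control, from -0.21 to 0.013 for *Fgfr2* and from -0.52 to 0.066 for *Fgfr3* between sites with TGFβ, and in the interaction from -2.10 to 0.27 for *Fgf21*, from -0.12 to 0.013 for *Fgfr1* and from -0.44 to 0.52 for *Fgfr3*. The cause was not tested.

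The replicate numbers were not taken to pair the samples: deviations from the group means of libraries with the same number had r from -0.0308 to 0.095, none over 0.1. Between sites in control every library was most like its own number (r from 0.0157 to 0.095), a hint from the data and not the design, and in the other comparisons not every one was, so that calls lost with the block say nothing of the size of an effect. *Fgf1*, *Fgf9* and *Fgf21* rest on few counts, where depth limits the size of a change. Where a group is left with 2 libraries, the spread is shared with the other group.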
